A study of Rattus norvegicus with 12 samples.

Results

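The natriuretic peptide system of the rat left ventricle (LV) was followed through 6 genes: the peptide genes Nppa and Nppb, the converting protease Corin, and the receptor genes Npr1, Npr2 and Npr3. These are the rows of the count table that carry one of these 6 symbols, out of 34599 genes in all. All 6 had enough counts to be among the 15101 genes tested. RNA was sequenced from 12 male Sprague Dawley rats in 3 groups of 4 (Sham, MI and iCarP+/Light+), each library from a different animal and labelled as LV taken 1 day after surgery. Sham rats had the chest opened and no vessel tied. MI rats had the left anterior descending coronary artery ligated and received nothing else. iCarP+/Light+ rats had the same ligation, an injection of the green alga Chlorella into the infarcted wall, a photonic patch glued to the epicardium and continuous light through it, so that alga, patch, adhesive and light differ from MI together. The labels describe the sampled tissue as the infarct region, which Sham hearts do not have, and the site sampled in Sham hearts is not given in the sources used here. The methods state an age for the rats of the illumination tests, and state none beside the infarction experiment.

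Cardiomyocytes make atrial natriuretic peptide from Nppa and B-type natriuretic peptide from Nppb, in the atria of the healthy adult heart and increasingly in the ventricle when its wall is stretched or starved of oxygen. Corin, a protease on the cardiomyocyte surface, cuts the precursor of atrial natriuretic peptide. Both peptides act through Npr1, a receptor that makes cyclic GMP (cGMP), whereas Npr2 is the cGMP-making receptor for the C-type peptide encoded by Nppc, and Npr3 binds all of these peptides and removes them.

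Nppa and Nppb lie beside each other on chromosome 5, and the stretches before their starts are shown because both genes rose after infarction. In the coordinates of the count table (rn6), Nppb spans 164796185 to 164797531 and Nppa spans 164808323 to 164809705, both on the plus strand, with 10791 bases between them. The other genes lie at 2:189840403-189856090 (Npr1, minus strand), 5:59128315-59147255 (Npr2, plus strand), 2:61888950-61949926 (Npr3, minus strand) and 14:38247791-38473648 (Corin, plus strand). No annotated gene overlapped any of the 6. The RefSeq promoter table held 5 of the 6 genes, all but Npr2, and its sequences are of another build (GRCr8). The runs below are the plus strand, 5′ to 3′, with capitals on matches, on either strand, to the GATA motifs AGATAA and the related TGATAA, to the AP-1 motif TGACTCA, to the MCAT motif CATTCC and to the TATA motif TATAAA. The Nppa run is chr5:163711934-163712183 and covers bases 250 to 1 before the start. The Nppb run is chr5:163699758-163699954 and stops at base 54 before the start of the table, where the annotated gene begins.
Nppa: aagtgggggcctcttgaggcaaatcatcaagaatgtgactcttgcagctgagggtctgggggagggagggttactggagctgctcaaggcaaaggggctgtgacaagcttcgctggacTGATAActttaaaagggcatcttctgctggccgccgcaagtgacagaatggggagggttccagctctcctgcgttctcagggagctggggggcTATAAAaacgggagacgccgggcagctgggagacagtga
Nppb: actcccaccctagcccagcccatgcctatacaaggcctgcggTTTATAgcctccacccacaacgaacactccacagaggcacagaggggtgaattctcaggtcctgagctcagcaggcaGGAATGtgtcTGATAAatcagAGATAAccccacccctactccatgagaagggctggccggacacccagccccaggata

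In the 250 bases before the start, Nppa held 1 match to the GATA motif TGATAA and 1 to TATA. Nppb held 1 match to each GATA motif on the plus strand, and 1 to MCAT and 1 to TATA on the minus strand. Among 33469 promoter windows of the same length, TGATAA was found in 7.97% and the other GATA motif in 10.3%, MCAT in 12.1%, TATA in 12.9% and AP-1 in 4.05%, each on either strand. Nppa also held 3 matches to CANNTG (E-box), 1 of which is the same stretch as its single CAAGTG (NKX), and Nppb held none of either. CANNTG was found in 65.5% and CAAGTG in 11.7% of the windows. None of these motifs was found in the windows of Npr1, Npr3 or Corin. A match describes the letters of the window and no more.

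The 12 libraries held 14064414 to 17136958 counts each, and the counts of the 6 genes ran from 8 (Npr3 in MI rat 4) to 19072 (Nppa in MI rat 4). Levels are given as CPM, the counts of a gene per 1000000 counts of the library after scaling by edgeR's TMM method. Groups were set against each other by the quasi-likelihood test of edgeR, adjusted by Benjamini-Hochberg over the 15101 genes, with a threshold of 0.05. Libraries of the groups differed in composition: genes of the mitochondrial genome took 22.8 to 28.9% of the counts in Sham rats, 8.52 to 11.5% in MI rats and 7.14 to 14.2% in iCarP+/Light+ rats, and the TMM factors were 0.784 to 0.856, 1.15 to 1.26 and 0.960 to 1.05. Cell type markers moved with the groups too. The summed level of 10 cardiomyocyte markers was 47186 to 51877 CPM in the Sham group, 3118 to 6229 CPM in the MI group and 2544 to 7386 CPM in the iCarP+/Light+ group, with 10 of 10 lower in both infarct groups than in Sham. The summed level of 9 leukocyte markers was 354 to 575 CPM in the Sham group, 4499 to 7558 CPM in the MI group and 6472 to 11442 CPM in the iCarP+/Light+ group, with 9 of 9 higher in both infarct groups than in Sham and 4 of 9 higher in iCarP+/Light+ than in MI. Red blood cell markers were lower in MI than in Sham for 5 of 7 genes and higher in iCarP+/Light+ than in MI for 4 of 7, and of mesothelial markers 1 of the 2 tested was lower in MI than in Sham. In such bulk tissue, fewer cells of a type and less RNA per cell cannot be told apart.

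After infarction both peptide genes rose, Corin, Npr2 and Npr3 fell, and Npr1 did not pass the test. Of the 6 genes, 2 were higher and 3 were lower in MI than in Sham. Of all genes tested, 63.8% were called in this comparison, 30.2% higher and 33.6% lower, so a call as such was common. The groups did not overlap for 4 of the 6 genes, against 59% of all genes. Between iCarP+/Light+ and MI none of the 6 genes passed the edgeR test, where 13.6% of all genes did (11.6% higher and 2.01% lower), and 1 of them, Npr1, had groups that did not overlap, against 16.4% of all genes. The same edgeR test called 0 of the 6 genes at an unadjusted p below 0.05, against 25.6% of all genes. After adjustment DESeq2 called none of the 6, against 17.3% of the genes to which it gave an adjusted p, and limma-voom called none, against 14.3% of all genes. Between iCarP+/Light+ and Sham, 2 of the 6 genes were higher and 4 were lower, where 66.5% of all genes were called (33.5% higher and 33% lower). All 6 had groups that did not overlap in that comparison, against 63.5% of all genes. The 3 comparisons share their groups and are not independent of each other.

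**Figure D1:**
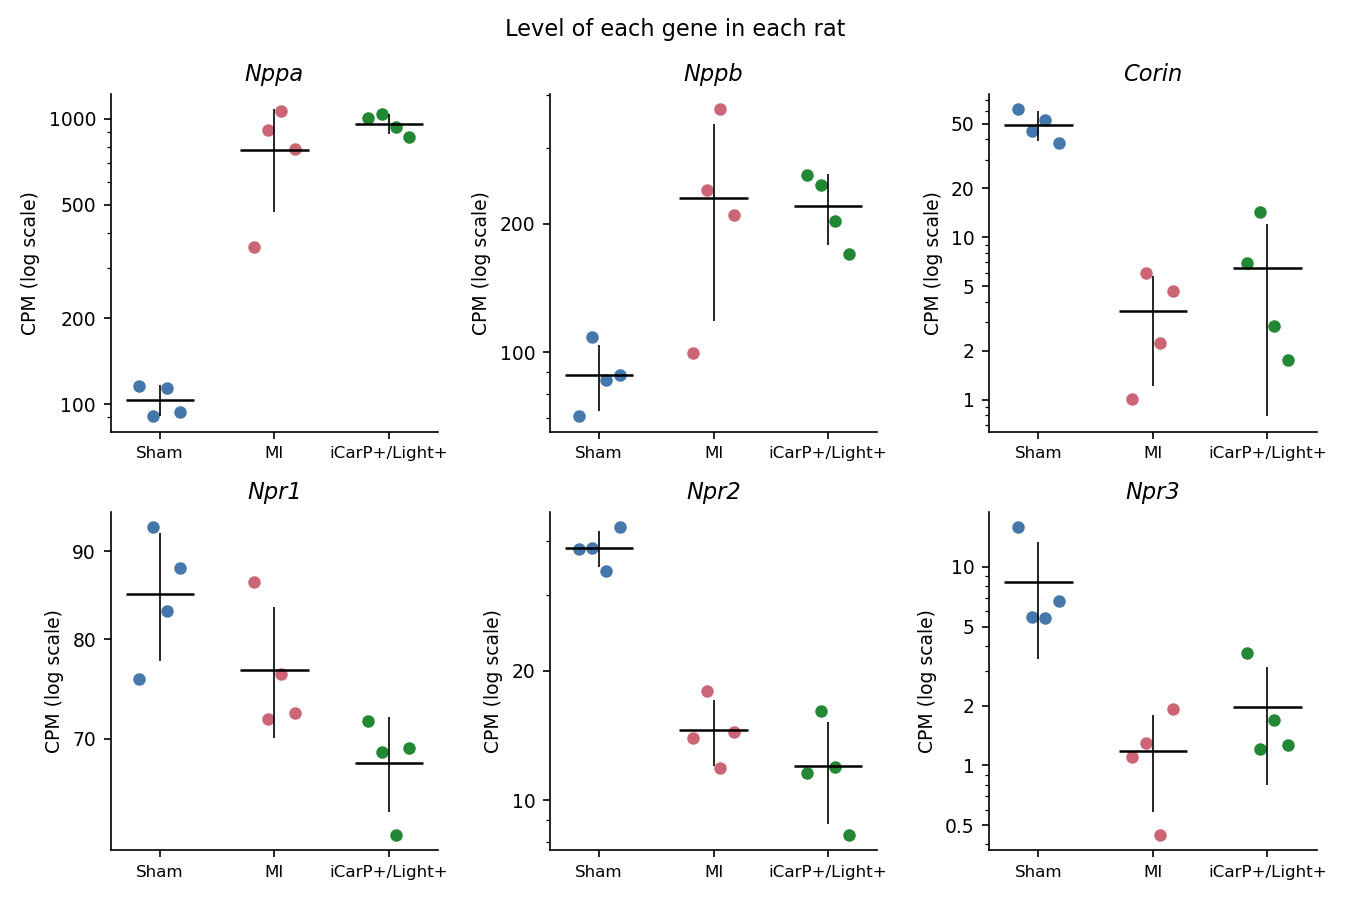
Level of each of the 6 genes in each of the 12 rats, in CPM on a log axis with its own range per gene, by group. Points are rats, horizontal lines are group means and vertical lines span 1 SD to each side (n = 4). Nppa in every infarcted rat lies above every Sham rat, Corin, Npr2 and Npr3 lie below, and MI rat 1 lies apart from the other MI rats for Nppa (355 CPM) and inside the Sham range for Nppb (99.4 CPM).

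Nppa was the gene of the 6 that rose most. Its level was 116, 91.1, 114 and 94.3 CPM in Sham rats 1, 2, 3 and 5. It was 355, 911, 1067 and 783 CPM in MI rats 1, 3, 4 and 5, and 1007, 1040, 935 and 864 CPM in iCarP+/Light+ rats 1, 2, 4 and 5. Every infarcted rat was above every Sham rat, and MI rat 1 was the lowest of the 8 infarcted rats. The mean rose from 103.9 ± 13.1 CPM (SD, n = 4) in Sham to 779 ± 306 CPM (SD, n = 4) in MI. This was a log2 fold change of 2.91 (SE 0.27, 95% interval 2.32 to 3.49), or 7.50-fold (edgeR adjusted p = 1.27e-06). In iCarP+/Light+ rats the mean was 961 ± 78.4 CPM (SD, n = 4), 9.25-fold above Sham (log2 fold change 3.21, edgeR adjusted p = 4.53e-07). Against MI the log2 difference was 0.30 (95% interval -0.24 to 0.85, edgeR adjusted p = 0.506), so differences from a small decrease to a 1.80-fold increase lie within the interval. The spread within the groups was unequal, with a coefficient of variation of 39.2% in MI and 8.16% in iCarP+/Light+, and this difference in spread was not tested.

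Nppb rose less, and its MI rats varied more relative to their mean (coefficient of variation 48.6% against 39.2% for Nppa). Its level was 70.8, 108.7, 86.1 and 88.2 CPM in Sham rats 1, 2, 3 and 5. It was 99.4, 239, 371 and 209.9 CPM in MI rats 1, 3, 4 and 5, and 259.6, 247, 203 and 170.1 CPM in iCarP+/Light+ rats 1, 2, 4 and 5. MI rat 1 lay below Sham rat 2, so MI and Sham overlapped, whereas all 4 iCarP+/Light+ rats were above all Sham rats. The mean was 88.5 ± 15.6 CPM in the Sham group, 230.0 ± 112 CPM in the MI group and 219.7 ± 41.1 CPM in the iCarP+/Light+ group (SD, n = 4 each). The log2 fold change of MI against Sham was 1.38 (SE 0.30, 95% interval 0.72 to 2.04), or 2.60-fold (edgeR adjusted p = 0.00147), while the two-sided exact permutation test of this gene alone gave p = 0.0571, where 0.0286 is the smallest p that 4 rats against 4 allow. The fold change of iCarP+/Light+ against Sham was 2.48 (log2 1.31, edgeR adjusted p = 0.0019). Against MI the log2 difference was -0.07 (95% interval -0.71 to 0.58, edgeR adjusted p = 0.921), and without MI rat 4 it was 0.26.

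**Figure D2:**
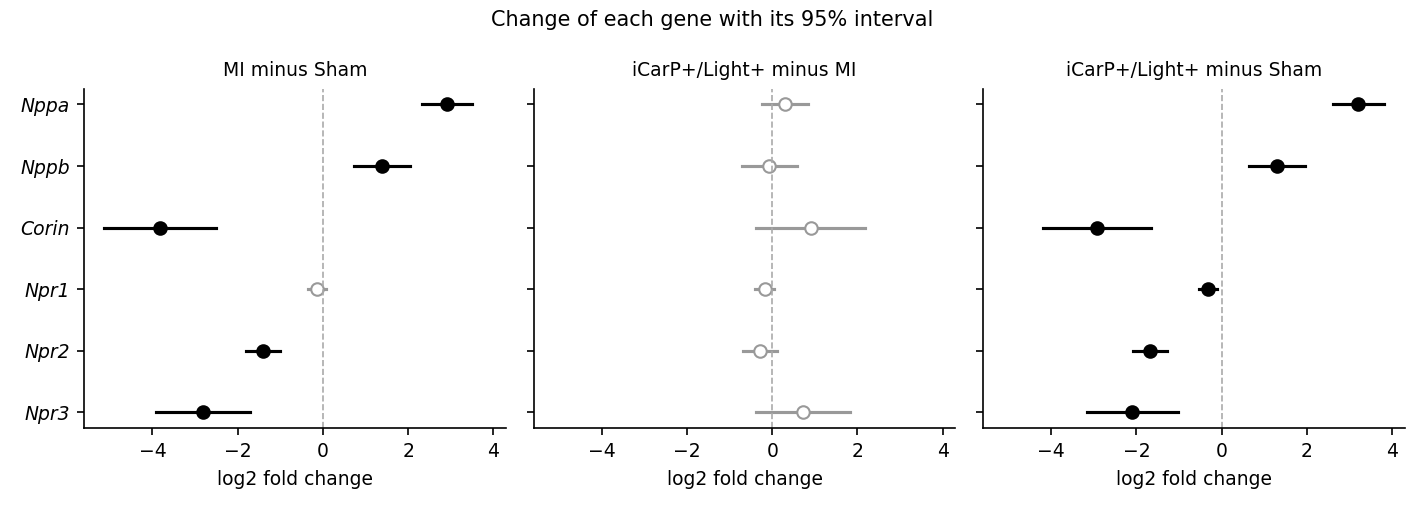
Log2 fold change of each gene (points) with its 95% interval (lines) from the edgeR fit over 12 rats, in 3 panels for MI against Sham, iCarP+/Light+ against MI and iCarP+/Light+ against Sham. Filled black points passed the adjusted threshold of 0.05 and open grey points did not. All intervals of the middle panel include 0, and the value of Npr1 against Sham takes the other sign for MI (0.43) when libraries are scaled by total counts.

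Compared per kilobase of the length listed for each gene, Nppa was above Nppb in every infarcted rat, whereas Sham rats had no common order. In Sham, Nppb was at 132 ± 23.2 and Nppa at 117 ± 14.7 CPM per kilobase (SD, n = 4), and these levels overlapped between rats. Nppa was the higher in Sham rats 1 and 3, and Nppb in Sham rats 2 and 5. In MI, Nppa was at 878 ± 344 and Nppb at 342 ± 166 CPM per kilobase, and in iCarP+/Light+ Nppa was at 1084 ± 88.4 and Nppb at 327 ± 61.2 CPM per kilobase.

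The number of Nppb counts per Nppa count within a rat does not depend on how libraries are scaled. It was 0.610, 1.19, 0.753 and 0.936 in Sham rats 1, 2, 3 and 5. It was 0.280, 0.263, 0.348 and 0.268 in MI rats 1, 3, 4 and 5, and 0.258, 0.237, 0.217 and 0.197 in iCarP+/Light+ rats 1, 2, 4 and 5. The groups did not overlap in any of the 3 comparisons, although the highest iCarP+/Light+ rat lay just under the lowest MI rat. The mean log2 ratio was -0.24 ± 0.42 in the Sham group, -1.797 ± 0.19 in the MI group and -2.15 ± 0.17 in the iCarP+/Light+ group (SD, n = 4). The difference was -1.56 between MI and Sham, -0.35 between iCarP+/Light+ and MI and -1.91 between iCarP+/Light+ and Sham. Each gave p = 0.0286 in the two-sided exact permutation test, the smallest possible, and 0.0457 after adjustment over the 24 ratio tests made. In all, 15 of the 24 ratio tests reached this smallest p, and this was the only 1 of them between iCarP+/Light+ and MI. Leaving out 1 rat at a time gave differences of -0.41 to -0.26 between iCarP+/Light+ and MI.

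Both peptide genes were also set against the mean log2 level of the 10 cardiomyocyte markers in the same rat. Relative to these markers Nppa was 6.09 log2 units higher in MI than in Sham, or 68.1 times, and 6.52 higher in iCarP+/Light+ than in Sham (exact permutation p = 0.0286, adjusted 0.0457 for both). Nppb was 4.53 log2 units higher in MI than in Sham, or 23.2 times, and 4.61 higher in iCarP+/Light+ than in Sham (exact permutation p = 0.0286, adjusted 0.0457 for both). The markers themselves were lower in both infarct groups, so these differences are larger than those of the CPM. Neither ratio passed the test between iCarP+/Light+ and MI, with differences of 0.42 for Nppa (exact permutation p = 0.229, adjusted 0.274) and 0.08 for Nppb (exact permutation p = 0.829, adjusted 0.865). MI rat 1, with the lowest Nppa and Nppb of the MI group, also had its lowest marker sum (3118 CPM), and its Nppa ratio to the markers was 1.99 beside 2.19 to 3.56 in the other MI rats. In iCarP+/Light+ rats 1, 2, 4 and 5 the marker sum was 7386, 5883, 3511 and 2544 CPM, the same order as Nppb. Nppa did not keep that order, with rat 2 (1040 CPM) above rat 1 (1007 CPM). Nor did Nppb in MI, where it was highest in rat 4 (371 CPM) and the marker sum in rat 3 (6229 against 5948 CPM in rat 4). The part of marker level in these results was not tested.

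In the healthy heart the atria express Nppa and Nppb, and the part of atrial tissue in their level here was not tested. The summed level of 5 atrial markers was 15.3 to 77.9 CPM in the Sham group, 4.89 to 14.5 CPM in the MI group and 4.70 to 7.07 CPM in the iCarP+/Light+ group. Only 3 of the 5 had enough counts to be tested, and Sln and Bmp10 did not. Kcnj3, a potassium channel gene, was lower in MI than in Sham (log2 fold change -3.69, edgeR adjusted p = 6.07e-06), whereas Myl7 (-2.08, adjusted p = 0.0933) and Myl4 (-0.22, adjusted p = 0.603), both myosin light chains, did not pass.

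Of 3 genes beside the peptide genes on chromosome 5, 1 rose slightly and 2 did not pass. On the side of Nppb away from Nppa, RGD1305350 was slightly higher in MI than in Sham (log2 fold change 0.28, edgeR adjusted p = 0.0295) and Plod1, a collagen lysyl hydroxylase, was at -0.07 (edgeR adjusted p = 0.616). Beyond Nppa, Clcn6, a chloride transporter, was at 0.12 (edgeR adjusted p = 0.496). None of the 3 passed between iCarP+/Light+ and MI.

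Corin fell more than any other of the 6 genes. Its level was 61.7, 45.1, 52.4 and 38.0 CPM in Sham rats 1, 2, 3 and 5. It was 1.01, 6.04, 2.24 and 4.68 CPM in MI rats 1, 3, 4 and 5, and 6.95, 14.3, 2.85 and 1.76 CPM in iCarP+/Light+ rats 1, 2, 4 and 5. Every infarcted rat was below every Sham rat, and the infarct groups overlapped. The MI level rested on 21 to 112 counts per rat. The mean was 49.3 ± 10.1 CPM in the Sham group, 3.49 ± 2.29 CPM in the MI group and 6.45 ± 5.67 CPM in the iCarP+/Light+ group (SD, n = 4). Corin was 14.1-fold lower in MI than in Sham (log2 fold change -3.82, SE 0.61, 95% interval -5.14 to -2.50, edgeR adjusted p = 1.18e-04), and with total counts in place of TMM the log2 fold change was -3.23. It was 7.57-fold lower in iCarP+/Light+ than in Sham (log2 -2.92, edgeR adjusted p = 6.34e-04), and 12.6-fold lower without iCarP+/Light+ rat 2 (adjusted p = 1.26e-04). The log2 difference of iCarP+/Light+ from MI was 0.90 (95% interval -0.37 to 2.17, edgeR adjusted p = 0.383), an interval that holds both no difference and a 4.51-fold increase, and it was 0.16 without iCarP+/Light+ rat 2 (adjusted p = 0.914).

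Relative to the cardiomyocyte markers of the same rat, the fall of Corin was much smaller. The markers had a median log2 fold change of -3.23 between MI and Sham, beside -0.06 over all genes. The log2 ratio of Corin to them differed by -0.74 between MI and Sham, which did not pass (exact permutation p = 0.0857, adjusted 0.121), and the groups overlapped. With the median of the markers in place of their mean the difference was -0.84 (exact permutation p = 0.0286, adjusted 0.0457). Between iCarP+/Light+ and Sham it was -0.01 (exact permutation p = 0.971), and between iCarP+/Light+ and MI 0.73 (exact permutation p = 0.257, adjusted 0.294).

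**Figure D3:**
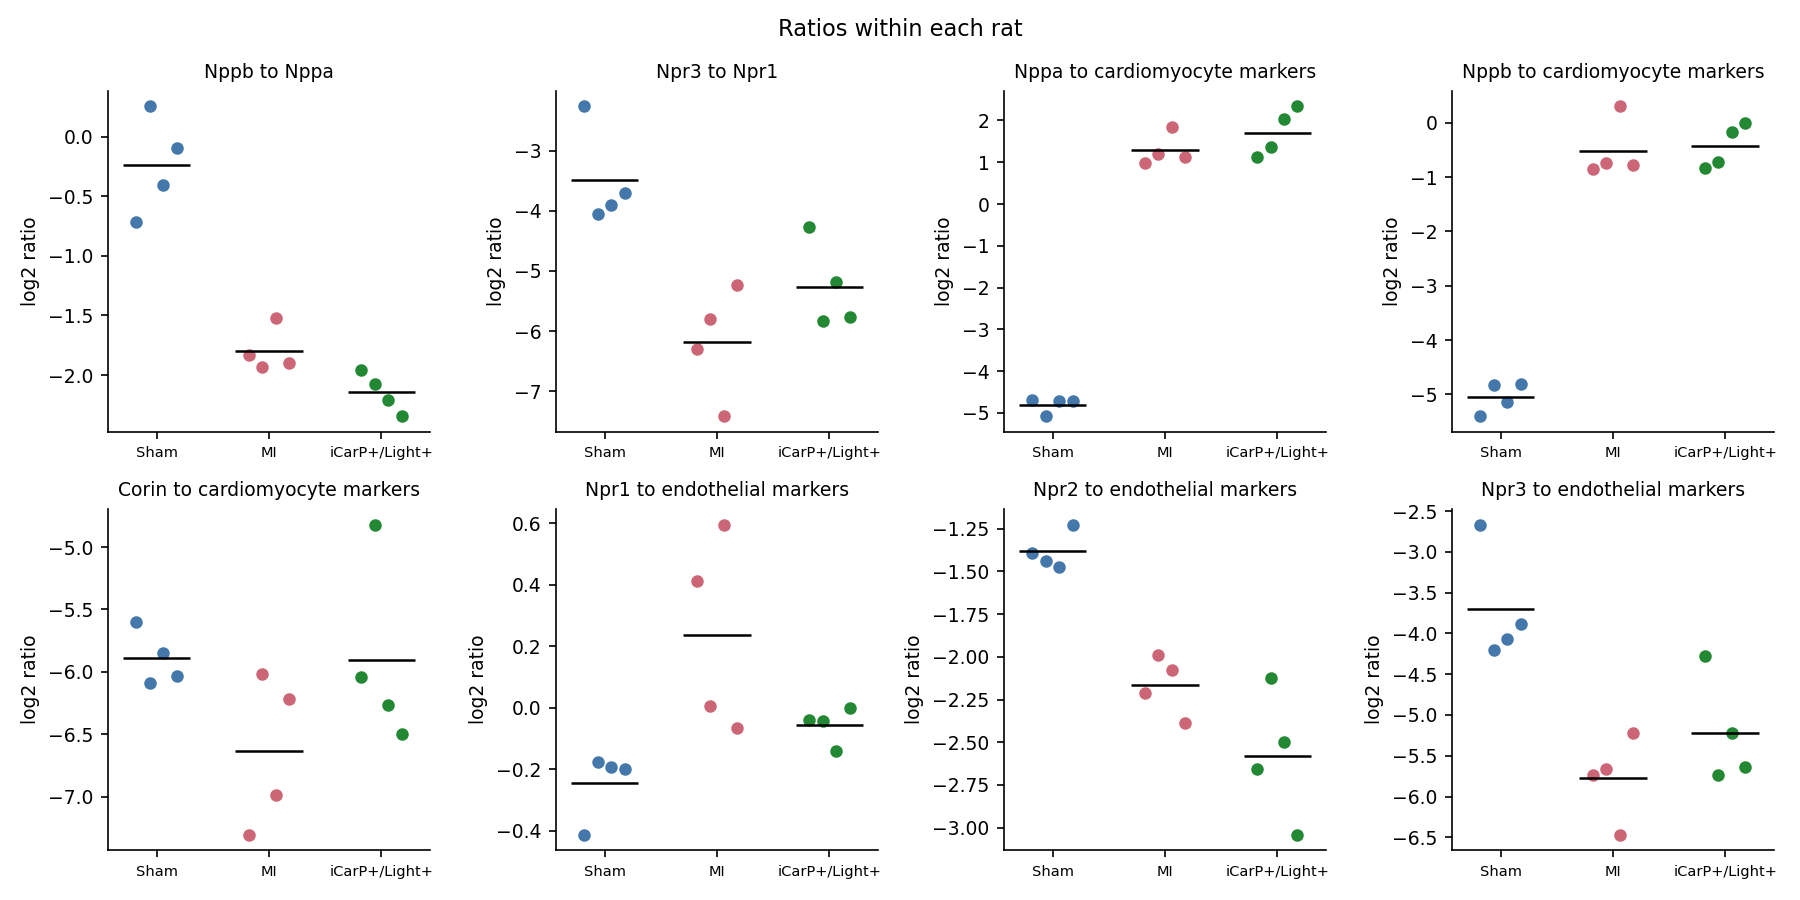
Log2 ratios within each rat (points) with group means (lines), by group: Nppb to Nppa and Npr3 to Npr1 from counts, the peptide genes and Corin to the mean of cardiomyocyte markers, and the receptors to the mean of endothelial markers. The peptide genes stand 4.53 to 6.52 log2 units higher relative to cardiomyocyte markers in the infarct groups than in Sham, the ratio of Corin overlaps between all groups, and Nppb to Nppa has 3 groups without overlap.

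Npr1, the receptor of both peptides, changed little. Its level was 75.8, 92.9, 83.1 and 87.9 CPM in Sham rats 1, 2, 3 and 5. It was 86.4, 71.9, 76.4 and 72.5 CPM in MI rats 1, 3, 4 and 5, and 71.7, 68.8, 61.6 and 69.1 CPM in iCarP+/Light+ rats 1, 2, 4 and 5. Sham and MI overlapped, and all iCarP+/Light+ rats lay below all rats of the other groups. The log2 difference between MI and Sham was -0.15 (95% interval -0.36 to 0.07, edgeR adjusted p = 0.216). Between iCarP+/Light+ and MI it was -0.18 (95% interval -0.39 to 0.04, edgeR adjusted p = 0.288), although the exact permutation test of this gene alone gave its smallest p, 0.0286. It was -0.33 between iCarP+/Light+ and Sham (edgeR adjusted p = 0.0111), a 1.25-fold decrease. Small as they are, these values depended on the scaling. With total counts in place of TMM the difference was 0.43 between MI and Sham (edgeR adjusted p = 0.00311), -0.45 between iCarP+/Light+ and MI (0.0126) and -0.02 between iCarP+/Light+ and Sham (0.906). That scaling moved the median of all genes to 0.52, -0.25 and 0.33, and relative to it Npr1 was at -0.09, -0.19 and -0.35.

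Npr2 fell in both infarct groups. Its level was 38.5, 38.6, 34.1 and 43.1 CPM in Sham rats 1, 2, 3 and 5. It was 13.9, 17.96, 11.9 and 14.4 CPM in MI rats 1, 3, 4 and 5, and 11.6, 16.1, 11.9 and 8.30 CPM in iCarP+/Light+ rats 1, 2, 4 and 5. All infarcted rats lay below all Sham rats, and the infarct groups overlapped. The mean fell from 38.6 ± 3.69 CPM (SD, n = 4) in Sham to 14.5 ± 2.54 CPM (SD, n = 4) in MI, a 2.65-fold decrease (log2 fold change -1.41, SE 0.18, edgeR adjusted p = 2.10e-05). In iCarP+/Light+ it was 11.99 ± 3.21 CPM (SD, n = 4), 3.21-fold below Sham (log2 -1.68, edgeR adjusted p = 4.42e-06). The difference of iCarP+/Light+ from MI was -0.28 (95% interval -0.68 to 0.12, edgeR adjusted p = 0.393). Nppc, which encodes the peptide that Npr2 binds, had 0 to 11 counts per rat in the Sham group, 0 to 1 in the MI group and 4 to 12 in the iCarP+/Light+ group, too few to be tested.

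Npr3, the clearance receptor, had the lowest level of the 6 genes per kilobase and, relative to its mean, the widest spread in Sham (coefficient of variation 59.0%, against 8.57% to 20.5% for the other members). Its level was 15.8, 5.60, 5.54 and 6.71 CPM in Sham rats 1, 2, 3 and 5. It was 1.10, 1.29, 0.447 and 1.92 CPM in MI rats 1, 3, 4 and 5, and 3.69, 1.21, 1.69 and 1.27 CPM in iCarP+/Light+ rats 1, 2, 4 and 5. Sham rat 1 was far above the other Sham rats, all infarcted rats were below all Sham rats, and the infarct groups overlapped. The counts behind these levels were 8 to 36 per rat in MI and 18 to 59 in iCarP+/Light+. Npr3 was 7.03-fold lower in MI than in Sham (log2 fold change -2.81, SE 0.51, edgeR adjusted p = 3.12e-04), and -2.31 on the log2 scale was the smallest decrease when 1 rat was left out, while scaling by total counts gave -2.22. It was 4.26-fold lower in iCarP+/Light+ than in Sham (log2 -2.09, edgeR adjusted p = 0.00208). The difference of iCarP+/Light+ from MI was 0.72 (95% interval -0.38 to 1.82, edgeR adjusted p = 0.424).

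Per kilobase, the receptors kept one order in their group means. In Sham, Npr1 was at 20.9 ± 1.79, Npr2 at 9.64 ± 0.92 and Npr3 at 4.12 ± 2.43 CPM per kilobase (SD, n = 4). In MI they were at 18.9 ± 1.65, 3.63 ± 0.63 and 0.582 ± 0.30, and in iCarP+/Light+ at 16.7 ± 1.07, 2.996 ± 0.80 and 0.962 ± 0.57 CPM per kilobase. Corin stood at 13.3 ± 2.73 CPM per kilobase in Sham, between Npr1 and Npr2, and at 0.942 ± 0.62 in MI.

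The clearance receptor fell relative to the cGMP-making receptor of the same peptides. The number of Npr3 counts per 100 Npr1 counts was 20.9, 6.02, 6.67 and 7.63 in Sham rats 1, 2, 3 and 5. It was 1.27, 1.80, 0.586 and 2.64 in MI rats 1, 3, 4 and 5, and 5.15, 1.76, 2.75 and 1.83 in iCarP+/Light+ rats 1, 2, 4 and 5. Every infarcted rat was below every Sham rat, and the infarct groups overlapped. The difference in mean log2 ratio was -2.70 for MI minus Sham and -1.78 for iCarP+/Light+ minus Sham (exact permutation p = 0.0286, adjusted 0.0457 for both). For iCarP+/Light+ minus MI it was 0.92 (exact permutation p = 0.171, adjusted 0.217).

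Npr1 and Npr3 are known from endothelial cells, among others, and endothelial markers moved as well. Of 8 endothelial markers tested, 7 were lower in MI than in Sham and 6 in iCarP+/Light+ than in Sham. The summed level of the 9 in the table was 2131 to 2391 CPM in the Sham group, 1107 to 1623 CPM in the MI group and 1490 to 1679 CPM in the iCarP+/Light+ group, with Cldn5 at 0 in every rat. Relative to the mean log2 level of these markers, Npr1 was 0.48 higher in MI than in Sham and 0.19 higher in iCarP+/Light+ than in Sham. Npr2 was lower by this measure, with differences of -0.78 and -1.20, and so was Npr3, with differences of -2.06 and -1.51. All 6 of these differences gave p = 0.0286 in the exact permutation test (adjusted 0.0457), and none of the 3 ratios passed between iCarP+/Light+ and MI. With the median of the markers, Npr3 in iCarP+/Light+ against Sham was at -1.06 and did not pass (exact permutation p = 0.114, adjusted 0.171). Markers of fibroblasts (summed level 10581 to 13346 CPM in Sham and 2880 to 3291 CPM in MI, 9 of 10 lower) and of mural cells (1258 to 1365 CPM in Sham and 514 to 931 CPM in MI, 4 of 10 lower and 1 higher) also differed, and their part in the receptor results was not tested.

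**Figure D4:**
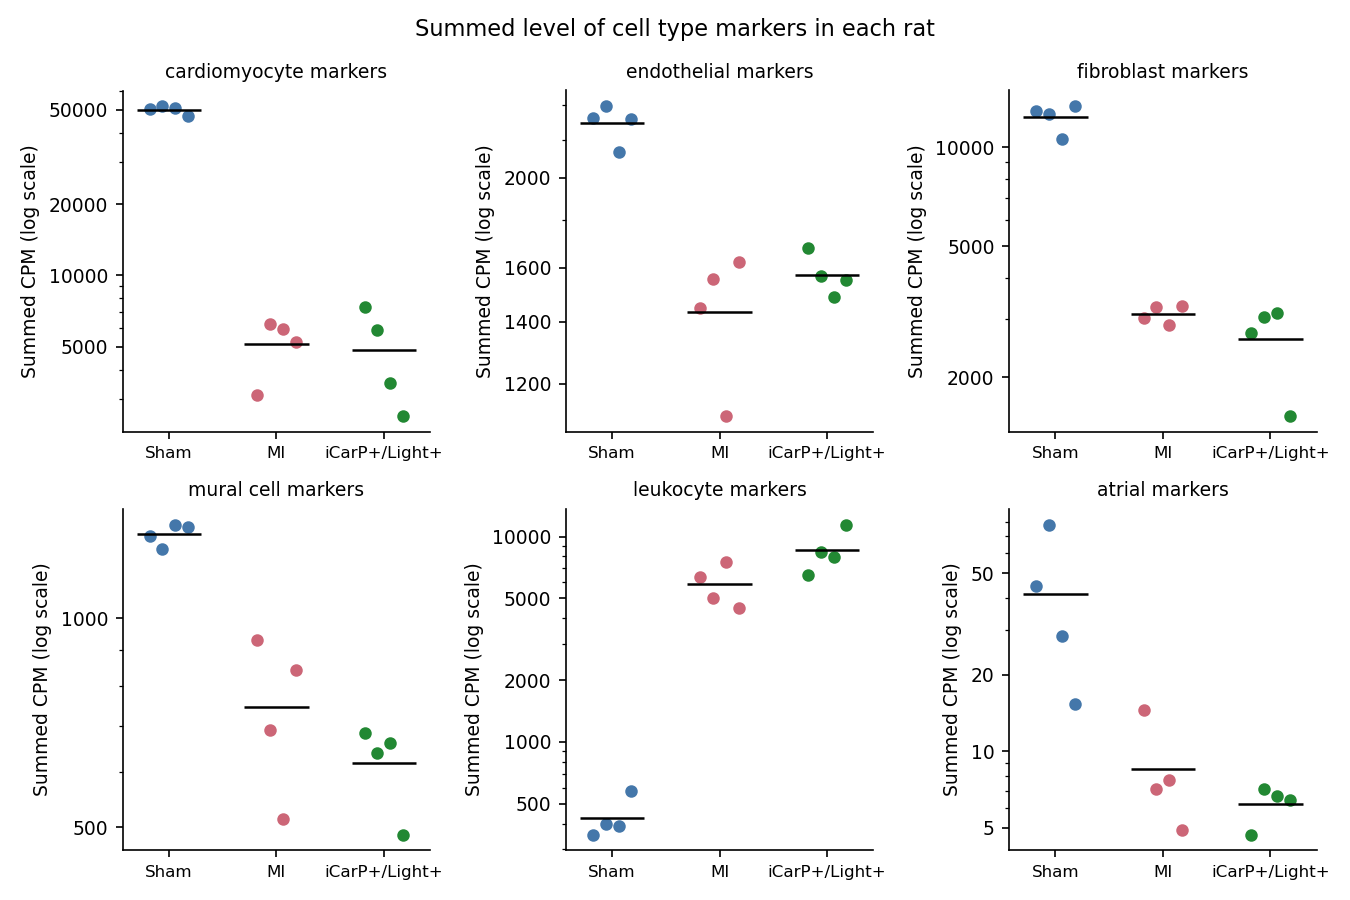
Summed level of the markers of 6 cell types in each rat (points), in CPM on log axes, with group means (lines). Cardiomyocyte, fibroblast, endothelial and mural cell markers lie lower in both infarct groups than in Sham, leukocyte markers lie higher, and MI rat 1 (the leftmost MI point) has the lowest cardiomyocyte sum of its group at 3118 CPM.

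The wider pathway was described through 4 further lists of genes. Beside a median log2 fold change of -0.06 over all genes between MI and Sham, the lists had medians of -0.30 (other ligands and processing), -0.85 (the nitric oxide arm), -0.04 (effectors of cGMP) and -0.40 (breakdown and export of cGMP). Among other peptide ligands and processing enzymes, 1 of the 5 genes tested was higher and 3 were lower in MI than in Sham. The shares over all genes were 30.2% higher and 33.6% lower. Furin, a convertase that cuts the B-type precursor among many proteins, rose from 152 ± 13.5 to 257 ± 41.2 CPM (log2 fold change 0.75, edgeR adjusted p = 2.96e-04). Pcsk6, the convertase that activates Corin, was 6.24-fold lower (log2 -2.64, edgeR adjusted p = 2.92e-07), and Dpp4, a peptidase that trims B-type peptide, was 6.77-fold lower (log2 -2.76, edgeR adjusted p = 2.99e-07). Ide, the insulin-degrading enzyme, fell slightly (log2 -0.30, edgeR adjusted p = 0.0268), and Mme, which encodes neprilysin, a peptidase that degrades natriuretic peptides, was at 0.46 (edgeR adjusted p = 0.107). Ostn, whose product musclin binds Npr3, had 0 to 6 counts per rat and was not tested. None of the 5 passed between iCarP+/Light+ and MI, where 13.6% of all genes did.

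Soluble guanylate cyclase, the other source of cGMP, which nitric oxide switches on, fell in its 3 tested subunits. A fall was called for 33.6% of all genes between MI and Sham. Gucy1a1 was 3.83-fold lower in MI than in Sham (log2 fold change -1.94, edgeR adjusted p = 2.94e-05), Gucy1b1 was at -0.87 (4.75e-04) and Gucy1a2 at -0.82 (0.0242). Nos3, the endothelial nitric oxide synthase, was at -0.07 (edgeR adjusted p = 0.693). Of these 4 genes, 0 passed between iCarP+/Light+ and MI, where 13.6% of all genes did.

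Genes that act below cGMP moved in both directions. Rgs2, a regulator of G protein signalling that cGMP-dependent kinase activates, was 4.01-fold higher in MI than in Sham (log2 2.00, edgeR adjusted p = 4.26e-05), and Rgs4, of the same family, was 2.80-fold lower (log2 -1.48, edgeR adjusted p = 1.29e-05). Irag1, a target of the kinase on calcium stores, listed under its older symbol Mrvi1, fell by 1.23 on the log2 scale (edgeR adjusted p = 8.62e-04). Vasp, an actin regulator that the kinase phosphorylates, was at 82.6 ± 10.2 CPM in the Sham group, 183 ± 28.9 CPM in the MI group and 620 ± 189 CPM in the iCarP+/Light+ group (SD, n = 4). It was 3.39-fold higher in iCarP+/Light+ than in MI (log2 1.76, edgeR adjusted p = 1.22e-04), and the groups did not overlap. It was the only 1 of the 23 other pathway genes tested to pass there, against 13.6% of all genes. Groups without overlap were found for 16.4% of all genes in that comparison. Of 9 leukocyte markers, 4 were also higher in iCarP+/Light+ than in MI (Ptprc, S100a8, S100a9 and Csf3r). The other 5 did not pass, and of these Lyz2 (-0.45), Cd68 (-0.39) and Csf1r (-0.56) had the other sign. The summed levels overlapped (6472 to 11442 against 4499 to 7558 CPM), and the part of these markers in the level of Vasp was not tested. Prkg1, the kinase gene of heart muscle and vessel, found no match among the symbols, and Prkg2 was not tested for want of counts.

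Among 10 genes that break down or export cGMP, 2 were higher and 3 were lower in MI than in Sham. Over all genes the shares were 30.2% higher and 33.6% lower. Abcc5, an exporter of cyclic nucleotides, rose 2.77-fold (log2 1.47, edgeR adjusted p = 7.72e-06) and Pde3b rose 2.29-fold (log2 1.19, edgeR adjusted p = 7.72e-06). Pde3a, the cGMP-inhibited phosphodiesterase of cardiomyocytes, was 4.16-fold lower (log2 -2.06, edgeR adjusted p = 6.34e-05), Pde9a was at -0.89 (0.00141) and Pde2a at -0.78 (9.57e-04). Pde5a, the target of sildenafil, was at -0.23 (edgeR adjusted p = 0.539). Of the 10, 0 passed between iCarP+/Light+ and MI, against 13.6% of all genes. Abcc5 at -0.52 (edgeR adjusted p = 0.0544) and Pde3b at -0.42 (0.0558) were nearest to the threshold.

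**Figure D5:**
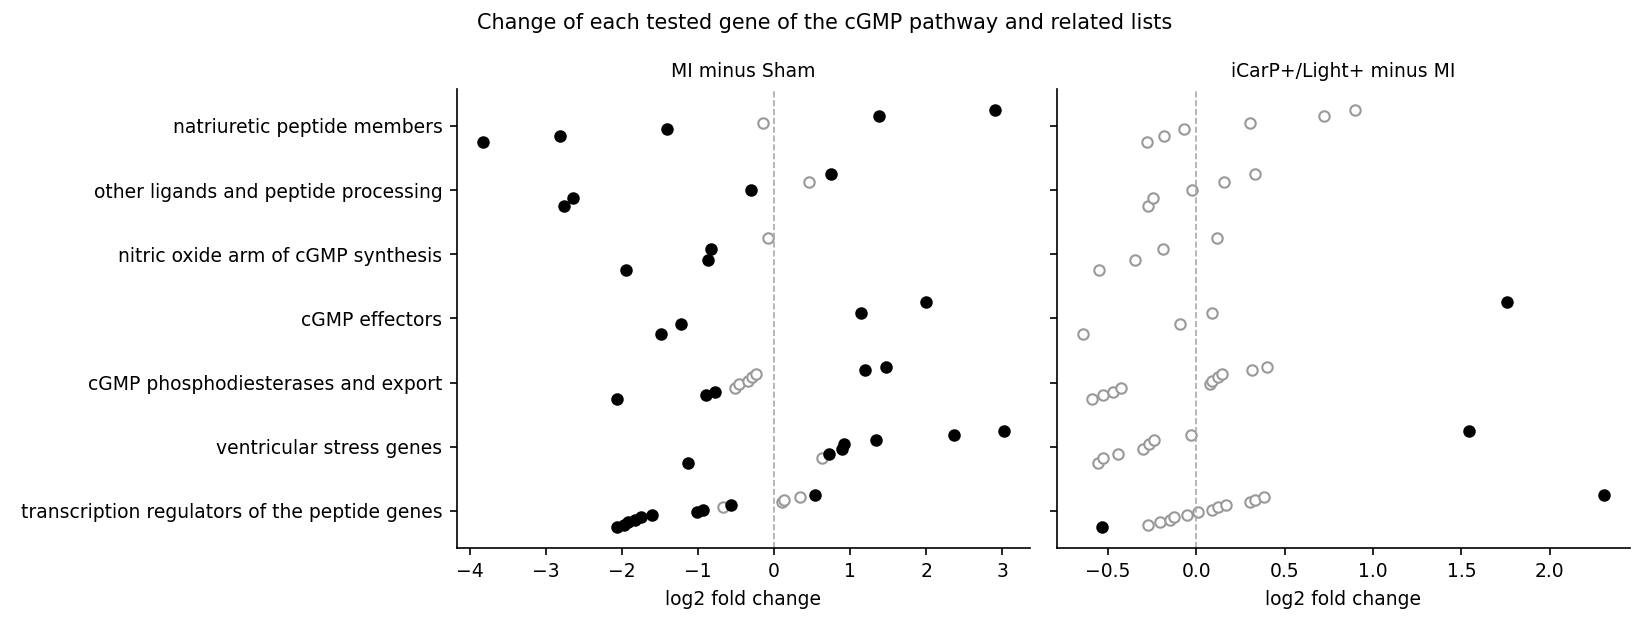
Log2 fold change of each tested gene of the 6 natriuretic genes, 4 lists of the cGMP pathway, ventricular stress genes and transcription regulators, for MI against Sham (left) and iCarP+/Light+ against MI (right, on its own scale). Filled black points passed the adjusted threshold of 0.05 and open grey points did not. On the right, 4 points are filled: Vasp (1.76), Gdf15 (1.54), Rest (2.30) and Mef2c (-0.53).

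Nppa and Nppb are often read beside other genes that rise in a stressed ventricle, and of 8 such genes 6 were higher and 1 was lower in MI than in Sham. Their median log2 fold change was 0.91, beside -0.06 over all genes, of which 30.2% were higher and 33.6% were lower. Gdf15, a stress-induced secreted factor, rose 8.11-fold (log2 3.02, edgeR adjusted p = 1.32e-05), and Xirp2, a protein of the intercalated disc, rose 5.18-fold (log2 2.37, edgeR adjusted p = 2.38e-06). Ankrd1 (0.89), Csrp3 (0.92), Fhl1 (1.34) and Rcan1 (0.73) also rose, whereas Acta1, skeletal alpha-actin, fell by 1.13 on the log2 scale (edgeR adjusted p = 0.00203) and Myh7, the slow myosin heavy chain, was at 0.63 (edgeR adjusted p = 0.111). In iCarP+/Light+ against MI, Gdf15 alone of the 8 passed, where 13.6% of all genes did. Gdf15 was 2.91-fold higher (log2 1.54, edgeR adjusted p = 0.00515). The other 7 were at -0.55 to -0.03.

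Transcription factors known to act on the peptide genes mostly fell. Of 14, 9 were lower and 1 was higher in MI than in Sham, with a median log2 fold change of -0.97. Over all genes 33.6% were lower and 30.2% higher, with a median of -0.06. The 10 cardiomyocyte markers had a median of -3.23, and the part of marker level in the fall of these factors was not tested. Gata4, which binds GATA sites such as those marked in the runs above, was 2.01-fold lower (edgeR adjusted p = 1.33e-05), Nkx2-5 was 3.35-fold lower (-1.74, 1.06e-05) and Tbx5 was 4.18-fold lower (-2.06, 8.44e-05). Tead1, which binds MCAT sites, was at -0.66 (edgeR adjusted p = 0.111) and Srf at 0.10 (0.387). Jarid2 was the gene that rose (0.54, edgeR adjusted p = 0.00982). In iCarP+/Light+ against MI, Mef2c fell by 0.53 (edgeR adjusted p = 0.0215) with overlapping groups. Rest, a repressor that binds the peptide genes, was at 22.7 ± 1.04 CPM in the Sham group, 28.7 ± 6.97 CPM in the MI group and 142 ± 49.4 CPM in the iCarP+/Light+ group (SD, n = 4), 4.94-fold higher in iCarP+/Light+ than in MI (log2 2.30, edgeR adjusted p = 5.55e-05). As for Vasp, 4 of 9 leukocyte markers were higher in that comparison, and their part in the level of Rest was not tested.

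The genes whose log2 CPM followed each of the 6 most closely over the 12 rats were found among 10721 protein-coding genes with a mean of at least 5 CPM (10722 for Npr3, which is below that mean). These correlations are descriptions: the 12 rats fall in 3 groups and share the scaling, so the correlation of deviations from the group means is given beside each. Nppa was followed by Hamp, which encodes hepcidin (r = 0.982, deviations 0.803), and Tvp23b (0.980, 0.738). Corin was followed by Mettl11b (r = 0.991, deviations 0.962), the cardiomyocyte calcium pump inhibitor Pln (0.987, 0.943) and the cardiac myosin kinase Mylk3 (0.987, 0.952). Nppb was followed by LOC100360573 (r = 0.947, deviations 0.837), AABR07026997.1 (0.940, 0.919) and Pfdn4 (0.939, 0.816).

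Among the receptors, Npr2 had the closest followers, Atp1b2 (r = 0.991, deviations 0.905), Apbb1 (0.988, 0.899) and Slc22a17 (0.988, 0.872). Npr1 was followed by Tpra1 (r = 0.925, deviations 0.850), Eef2k (0.910, 0.746) and Cpped1 (0.894, 0.741), and Npr3 by Sncaip (0.952, 0.784), AABR07027306.1 (0.951, 0.823) and Zfp354a (0.950, 0.784). No member of the 6 was among the followers of another.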

How the data were processed

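RNA-seq counts of LV tissue from 12 rats were used (4 Sham, 4 MI, 4 iCarP+/Light+), grouped by their labels. The authors deposited raw whole-number read counts per gene, without normalization. The submitters' processing notes name HISAT2, featureCounts and rn6. Their versions, the annotation release and the strand setting are not given in the sources used here. The libraries were made with a NEBNext Ultra kit. Counts carry no molecular identifiers. Depth was 14064414 to 17136958 counts per rat.

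The test was run in edgeR 4.0.16 under R 4.3.3: filterByExpr with the 3 groups (minimum count 10), TMM, and 1 quasi-likelihood model for all 12 rats. CPM are TMM-scaled, and log2 CPM have a prior count of 2. Ratios were compared by exact permutation over 70 arrangements (SciPy 1.17.1), adjusted over 24 tests. Scripts were tested on simulated data. Within groups, the 18 pairs of libraries differed by a chi-square per gene of 14.1 to 114, where counting noise gives about 1, so no library was counted as a copy.

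The 6 genes, the gene lists and the tests were chosen with earlier results of these data known. The genes named are the 6, those of the lists, the 3 genes most correlated with each, and the 2 neighbours on each side of Nppa and Nppb, some of which are not reported here. Alternatives were DESeq2's size factors, total counts, DESeq2 1.42.0, limma-voom (limma 3.58.1), other count filters, no mitochondrial genes, only the compared rats, a replicate block, leaving out each rat, other scales of the ratios, and the median of the markers. Endothelial markers without the gene at 0 were added after seeing the data. Promoter letters come from RefSeq (GRCr8). Prkg1, Pecam1 and Itgam found no matching symbol. The unlit patch group (iCarP+/Light-) was not analysed here. Plots were drawn with matplotlib 3.10.9.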

Additional observations from a re-analysis of the deposited data

Results flagged for a closer look

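Over 42 groups of 4 rats (6 genes and 8 ratios in 3 groups), a rat lay apart from the other 3 on the log2 scale in 3, where chance gives about 2.1. In Sham rat 2 the ratio of Nppa to cardiomyocyte markers was 0.0296 beside 0.0378 to 0.0388 in the other Sham rats (gap 0.905 of the range). In MI rat 4 the ratio of Nppb to cardiomyocyte markers was 1.24 beside 0.558 to 0.600 (gap 0.908 of the range). In Sham rat 1 the ratio of Npr1 to endothelial markers was 0.751 beside 0.871 to 0.884 (gap 0.910 of the range). No gene passed by its own level on that scale. The nearest was Npr3 in Sham rat 1, at 15.8 CPM beside 5.54 to 6.71 CPM, with a gap of 0.819 of the range on the log2 scale and 0.887 on the CPM scale.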

How the results depend on the processing

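Of 219 values under other settings, 210 kept direction and call, or, for counts of genes called, stayed within 1.5 times the reported count. With 1 rat left out so did 251 of 252 tested values of genes and counts of genes, and 183 of 192 ratios, which then have no test, kept their direction. With total counts in place of TMM, Npr1 was at 0.43 (MI minus Sham), -0.45 (iCarP+/Light+ minus MI) and -0.0154 (iCarP+/Light+ minus Sham), and 3926 genes in place of 2051 were called between iCarP+/Light+ and MI, 30.7% of them higher in place of 85.2%. Under that scaling 73.5% of the calls between MI and Sham were higher in place of 47.3%, and 64.7% between iCarP+/Light+ and Sham in place of 50.3%. DESeq2 gave 70.8% and a filter of at least 10 counts in every sample 72.4% between iCarP+/Light+ and MI. The difference of Nppb between iCarP+/Light+ and MI, near 0, was 0.0566 with limma-voom and ran from -0.32 to 0.26 with 1 rat left out. With the median of the markers, Corin relative to cardiomyocyte markers was at -0.84 (MI minus Sham) and Npr3 relative to endothelial markers at -1.06 (iCarP+/Light+ minus Sham). With 1 rat left out, Nppb relative to cardiomyocyte markers ran from -0.0693 to 0.349 (iCarP+/Light+ minus MI) and Corin from -0.38 to 0.18 (iCarP+/Light+ minus Sham). The cause of these changes was not tested. Npr3 has no value under at least 10 counts in every sample.

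Rats of different groups share replicate numbers in their names, but nothing says that the numbers pair them, and the deviations of the 9 same-numbered pairs correlated at -0.15 to 0.07. With the replicate block, 1298 genes were called between iCarP+/Light+ and MI, and Nppb took the other sign there (0.00684). Apart from this sign, the 6 genes kept their direction and call. Npr3 in MI (8 to 36 counts) is the value most limited by depth.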
